A study of Mus musculus with 6 samples.

Results

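Mitochondrial ribosomal protein genes were examined in mouse liver. They were taken by symbol, as the Mrpl and Mrps names followed by a number, which gave 78 of the 17441 genes in the table, 49 Mrpl and 29 Mrps. The study set 3 livers labelled iKO against 3 livers labelled WT. The iKO label stands for whole-body loss of NEK7, a kinase of mitosis that also takes part in NLRP3 inflammasome assembly, with the deletion inducible by tamoxifen. The WT livers came from wild-type mice, and both groups were collected 10 days after tamoxifen, so the drug itself is common to them. The sources used here do not give the Cre driver, the strain, the age or whether the WT mice carried a Cre or a floxed allele. They also do not say that each library is a separate animal, and p-values measure the spread between these 6 samples.

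The mitochondrial ribosome translates the few proteins that mitochondrial DNA encodes, all of them subunits of the oxidative phosphorylation complexes. Its ribosomal RNA comes from mitochondrial DNA, but every one of its proteins is encoded in the nucleus, made in the cytosol and imported. The large subunit (Mrpl) joins amino acids and holds the exit tunnel, which faces the inner membrane, and the small subunit (Mrps) reads the messenger RNA. Many of these proteins descend from bacterial ribosomal proteins and others were gained by mitochondria. Hepatocytes are rich in mitochondria. The symbol does not always give the place: Mrps18a and Mrps30 sit in the large subunit, and Mrps36 is a component of the 2-oxoglutarate dehydrogenase complex rather than of the ribosome.

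Expected counts summed to between 18139500 and 19912000 per library. Nek7 had 50.2, 32.8 and 31.0 CPM (counts scaled to library size) in the livers labelled iKO, against 55.5, 40.5 and 36.3 CPM in the livers labelled WT. The groups overlapped, with a log2 fold change (iKO over WT throughout) of -0.22 ± 0.23 (SE, n = 3 each, edgeR quasi-likelihood test, adjusted p = 0.541), so the targeted transcript does not set the labels apart. Which exons the deletion removes is not known from the labels. The Y-linked genes Ddx3y and Kdm5d had reads in all 3 iKO libraries and in WT 1, and 0 counts in WT 2 and WT 3. The hepatocyte markers summed to 116278 to 138044 CPM in iKO and 117638 to 129910 CPM in WT, with 1 of 9 higher in iKO and 0 lower. Of all tested genes 7.31% were higher in iKO and 8.07% lower at an edgeR adjusted p under 0.05. Of the 10 markers in each other list, 7 stellate, 6 Kupffer, 3 sinusoidal endothelial and 5 neutrophil markers were lower in iKO, and 0 of these were higher. Their summed levels were 168 to 189 CPM in iKO and 337 to 520 CPM in WT for stellate cells, 271 to 342 CPM in iKO and 389 to 726 CPM in WT for Kupffer cells, 79.2 to 165 CPM in iKO and 189 to 299 CPM in WT for sinusoidal endothelial cells, and 12.4 to 38.8 CPM in iKO and 29.3 to 127 CPM in WT for neutrophils. Lymphocyte markers summed to 8.16 to 12.5 CPM in iKO and 8.84 to 14.5 CPM in WT with 0 of 9 called, and cholangiocyte markers to 144 to 465 CPM in iKO and 172 to 266 CPM in WT with 1 higher and 1 lower. No marker was at 0 in every library. The neutrophil sums overlapped between the groups, unlike the stellate, Kupffer and sinusoidal endothelial sums. The called neutrophil marker Mpo was near the floor in iKO livers, at 0.0666, 0.107 and 0.259 CPM. The neutrophil markers S100a8 and S100a9 were not called (edgeR adjusted p = 0.428 and 0.506). The part these lists play in the results below was not tested, and in whole liver fewer cells of a type and less RNA per cell cannot be told apart.

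Most mitochondrial ribosomal protein transcripts had a higher mean level in the livers labelled iKO, in both subunits and by a small amount. The median was positive under each alternative scaling and fit for the large subunit and, with 1 exception, for the small, where a length offset with a Y-linked term gave -0.03. Of the 78 genes, all of which passed the filter on low counts, 72 had a positive log2 fold change and 6 a negative one (Mrpl3, Mrpl44, Mrpl1, Mrpl49, Mrps22 and Mrps27). Of all 13160 tested genes, 48.3% had a positive one. The adjusted p passed 0.05 for 13 genes, or 16.7%, all higher in iKO, where 7.31% of all tested genes were called higher. No member was called lower, where 8.07% of all tested genes were. Without adjustment 32 members had p under 0.05 and were higher, where 16% of all genes were, and 1, Mrpl3, was lower, where 17.2% were. DESeq2 called 15 higher and 0 lower, where it called 10% and 9.42% of all genes. The median log2 fold change was 0.37 over the members, with quartiles of 0.19 and 0.54, beside -0.02 over all tested genes. Every iKO liver lay above every WT liver for 42 members, or 25 Mrpl and 17 Mrps genes, where 19.8% of all tested genes did so. The order was the other way for Mrpl3 alone, where 19.2% of all tested genes did so. All 13 calls were lost when the liver WT 2 was left out and when the fit had a term for libraries with Y-linked reads, as shown further on. That term leaves WT 1 as the only WT liver compared with iKO. The median log2 fold change over the members was 0.33 without WT 2, with 73 positive values, and 0.27 with the Y-linked term, with 67 positive values. Positive values numbered 55 with log2(FPKM + 1), 45 with a length offset and 38 with that offset and a Y-linked term. The shortest quintile of all tested genes by transcript length, which holds 60 of the members, had 15.6% called higher.

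**Figure D1:**
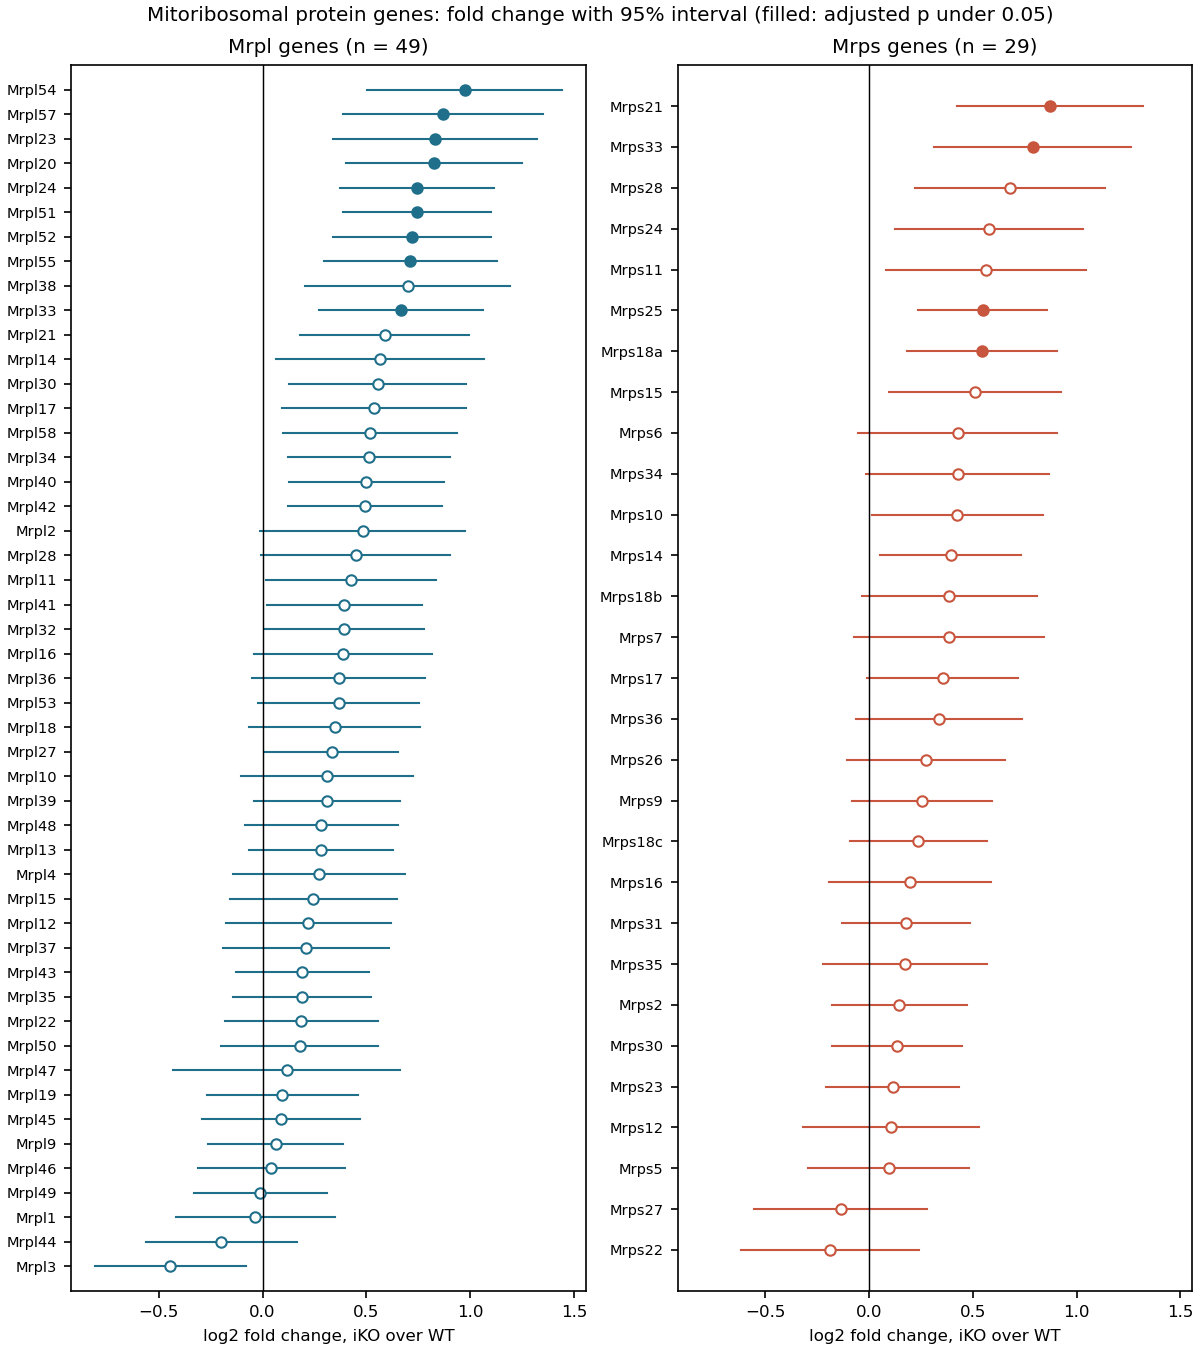
Log2 fold change (iKO over WT) of each of the 78 mitochondrial ribosomal protein genes with its 95% interval, ordered within the large and the small subunit; filled points are genes with an adjusted p under 0.05. Of the 78 points, 72 lie right of 0 and Mrpl3 lies farthest left at -0.44.

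The counts and medians of the subunits were close, and 7.31% of all tested genes were called higher. The large subunit had 9 of 49 genes called (18.4%) and a median log2 fold change of 0.37, with quartiles of 0.19 and 0.55. The small subunit had 4 of 29 called (13.8%) and a median of 0.35, with quartiles of 0.17 and 0.51. Placing Mrps18a and Mrps30 in the large subunit and leaving Mrps36 out gave 10 of 51 and 3 of 26. Proteins with a bacterial counterpart had 6 of 46 genes called (13%), a median of 0.39 and a median transcript length of 970 bases. Those particular to mitochondria had 7 of 31 called (22.6%), a median of 0.31 and a median transcript length of 1167 bases. The second class follows the nomenclature and holds Mrps18a and Mrps18b, whose bacterial descent is given below. Mrps36 was in neither class. No test was run between these groups of genes, since genes are not replicates.

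Among the large subunit genes the highest fold change belonged to Mrpl54 (gene ID 66047), a protein that bacteria lack. It had 42.9, 26.7 and 32.5 CPM in iKO livers, against 18, 14 and 19.9 CPM in WT livers. Every iKO liver was above every WT liver, and the level was 1.96 times as high (95% interval 1.42 to 2.72, log2 fold change 0.97 ± 0.21, edgeR adjusted p = 0.0172). Mrpl57 (67840), also particular to mitochondria, had 40.9, 24.4 and 27.2 CPM in iKO livers, against 18.1, 14.3 and 18.2 CPM in WT livers, a log2 fold change of 0.87 ± 0.21 (edgeR adjusted p = 0.0277). Mrpl23 (19935), whose bacterial counterpart lines the mouth of the exit tunnel, had 51.8, 31.7 and 40.2 CPM in iKO livers, against 20.3, 20.2 and 29 CPM in WT livers. Its log2 fold change was 0.83 ± 0.22 (edgeR adjusted p = 0.0341). In all 3 genes iKO 1 was the highest library and the groups did not overlap, but the lowest iKO value of Mrpl23 stood only a little above WT 3.

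Mrpl20 (66448), a protein that in bacteria binds large subunit RNA early in assembly, had 47.5, 32.8 and 43.3 CPM in iKO livers, against 26.1, 19.0 and 24.5 CPM in WT livers (log2 fold change 0.83 ± 0.19, edgeR adjusted p = 0.0214). Mrpl51 (66493) had the lowest adjusted p of the members, with 58.6, 43.5 and 52.5 CPM in iKO livers, against 32.8, 29.6 and 30.0 CPM in WT livers (0.74 ± 0.16, adjusted p = 0.0167). Mrpl24 (67707), a homologue of another exit tunnel protein, had 68.1, 49.9 and 64.9 CPM in iKO livers, against 37.9, 33.9 and 37.3 CPM in WT livers (0.74 ± 0.17, adjusted p = 0.0196). In these genes iKO 2 was the lowest of the iKO livers and still clear of the WT livers. The other called large subunit genes were Mrpl52 at 0.72 ± 0.17 (adjusted p = 0.0237), Mrpl55 at 0.71 ± 0.19 (adjusted p = 0.0335) and Mrpl33 at 0.67 ± 0.18 (adjusted p = 0.0348). Mrpl33 was the least abundant called gene, with 15.3, 11.8 and 15.4 CPM in iKO livers, against 9.13, 8.12 and 9.52 CPM in WT livers.

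In the small subunit the leading gene was Mrps21 (66292), the counterpart of bacterial S21. It had 60.3, 36.5 and 47.5 CPM in iKO livers, against 28, 22.8 and 28 CPM in WT livers, without overlap (log2 fold change 0.87 ± 0.20, edgeR adjusted p = 0.0216). Mrps33 (14548), a mitochondria-specific protein, had 33.3, 21.7 and 25.7 CPM in iKO livers, against 18.7, 12.3 and 15.7 CPM in WT livers (0.79 ± 0.21, adjusted p = 0.0369). Mrps25 (64658), another such protein, had 29.2, 27.1 and 29.2 CPM in iKO livers, against 20.3, 18.4 and 19.8 CPM in WT livers (0.55 ± 0.14, adjusted p = 0.0301). Its iKO livers lay close together, as did its WT livers. Mrps28, which the current nomenclature sets beside bacterial S1, had a fold change of 0.68 ± 0.20 on the log2 scale and missed the threshold (adjusted p = 0.0514), with 25.4, 17.8 and 17.6 CPM in iKO livers, against 14.1, 10.2 and 13.6 CPM in WT livers.

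The paralogs Mrps18a, Mrps18b and Mrps18c descend from a single bacterial protein. Mrps18a, which sits in the large subunit, was called higher with 37.8, 30.8 and 28.4 CPM in iKO livers, against 22.6, 20.1 and 23.8 CPM in WT livers (0.55 ± 0.16, edgeR adjusted p = 0.0493). Mrps18b had 68.5, 47.9 and 52.2 CPM in iKO livers, against 45.9, 35.7 and 47.3 CPM in WT livers (0.39 ± 0.19, adjusted p = 0.185). Mrps18c, the copy closest to the bacterial protein, had 17.3, 16.8 and 17.1 CPM in iKO livers, against 15.6, 13.4 and 14.5 CPM in WT livers (0.24 ± 0.15, adjusted p = 0.289). Every iKO liver lay above every WT liver for each paralog, narrowly so for Mrps18b and Mrps18c. The difference between paralogs was not tested.

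**Figure D2:**
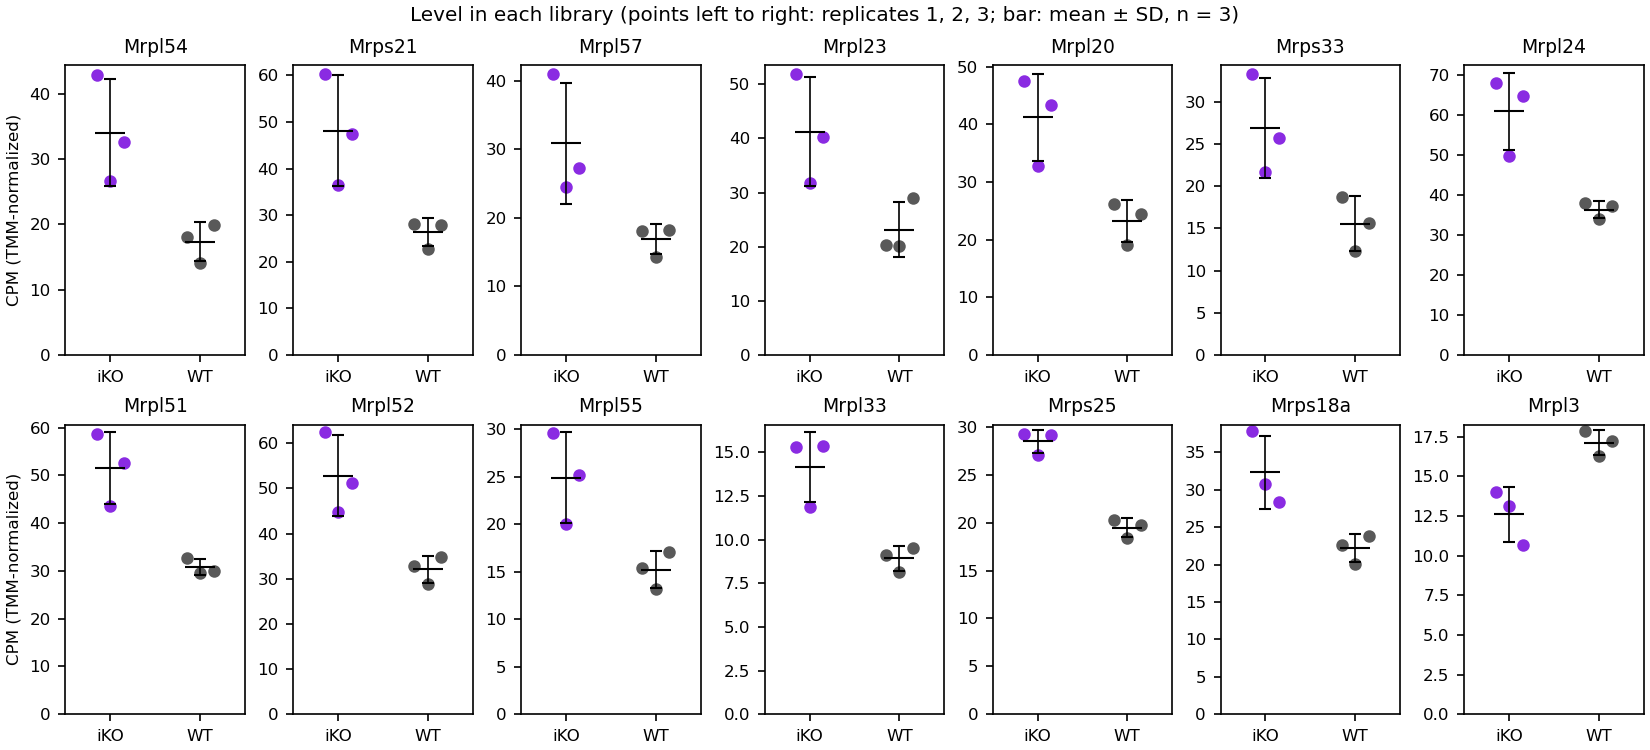
CPM in each liver for the 13 called mitochondrial ribosomal protein genes and Mrpl3, iKO livers left of WT livers, 1 point per liver, with bars for the mean ± SD (n = 3). The iKO points lie above the WT points in the called genes and below them in Mrpl3.

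Several other members were named for their role in the ribosome and not for their values. None of those in the stalk, at the membrane or in the decoding region passed the test. Of all tested genes 7.31% were called higher and 8.07% lower, and these members are too few for a share to be read from them. The stalk, which recruits translation factors, is formed with Mrpl10, Mrpl11 and Mrpl12, and Mrpl12 has also been described as a partner of the mitochondrial RNA polymerase. Mrpl12 had 109, 88.0 and 86.3 CPM in iKO livers, against 79.5, 71.4 and 92.2 CPM in WT livers, and the groups overlapped (0.22 ± 0.18, edgeR adjusted p = 0.416). Mrpl10 gave 0.31 ± 0.19 (adjusted p = 0.272) and Mrpl11 gave 0.43 ± 0.18 (adjusted p = 0.139). Mrpl45, which attaches the large subunit to the inner membrane, gave 0.09 ± 0.17 (adjusted p = 0.752). Mrps12, a part of the decoding centre, gave 0.11 ± 0.19 (adjusted p = 0.728), Mrps16 gave 0.20 ± 0.17 (adjusted p = 0.460) and Mrps34, needed in mouse for a stable small subunit, gave 0.43 ± 0.20 (adjusted p = 0.161).

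Mrpl3 (94062), the counterpart of bacterial L3 at the peptidyl transferase centre, ran against the other members. It had 14, 13.1 and 10.7 CPM in iKO livers, against 17.8, 16.3 and 17.3 CPM in WT livers. Every iKO liver was below every WT liver, and the log2 fold change was -0.44 ± 0.16 with a 95% interval of -0.81 to -0.08 (edgeR adjusted p = 0.0902). It was not called, but it was called lower, at -0.60 (adjusted p = 0.0379), in the length-offset fit described further on. With DESeq2 or with the Y-linked term, neither Mrpl3 nor another member was lower at an unadjusted p under 0.05. The same held in the edgeR fits without iKO 2, iKO 3, WT 1 or WT 2. The other negative values were small: -0.20 ± 0.16 for Mrpl44, an RNase III-like large subunit protein (adjusted p = 0.422), -0.19 ± 0.19 for Mrps22 (adjusted p = 0.519), -0.14 ± 0.19 for the pentatricopeptide repeat protein Mrps27 (adjusted p = 0.645), -0.03 ± 0.17 for Mrpl1 (adjusted p = 0.912) and -0.01 ± 0.14 for Mrpl49 (adjusted p = 0.967). Their groups overlapped.

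Abundance per length was compared in FPKM averaged over the 6 livers. Large subunit genes ranged between 2.5 and 115 FPKM with a median of 25.4, and small subunit genes between 3.95 and 83.2 FPKM with a median of 20.6. The highest was Mrpl52, with 135 ± 14 FPKM in iKO and 94.0 ± 4.98 FPKM in WT (SD, n = 3 each). Mrpl12 had 94.3 ± 3.68 FPKM in iKO and 92.6 ± 9.20 FPKM in WT, and Mrps21 had 102 ± 17.3 FPKM in iKO and 64.2 ± 2.63 FPKM in WT. Mrpl14 had 81.7 ± 14 FPKM in iKO and 63.6 ± 9.01 FPKM in WT. Mrps18b and Mrps34 followed in the small subunit at 46.1 and 46.0 FPKM over all livers, a difference smaller than their SD. Mrpl19 was lowest, with 2.42 ± 0.259 FPKM in iKO and 2.58 ± 0.190 FPKM in WT, and then came Mrps25 at 4.46 ± 0.680 FPKM in iKO and 3.45 ± 0.125 FPKM in WT. Mrpl35 had 6.01 ± 1.19 FPKM in iKO and 5.96 ± 0.625 FPKM in WT, and Mrps14, the second lowest of the small subunit, had 9.53 ± 0.745 FPKM in iKO and 8.25 ± 0.20 FPKM in WT. The estimated counts of Mrpl19, Mrpl35 and Mrps25 were not whole in any library, a sign that reads were divided with other features, and their levels are less certain. Taking a count within 0.001 of a whole number as whole, 21 members were not whole in any of the 6 libraries, 17 Mrpl and 4 Mrps genes, and 29 were not whole in at least 1. The 21 include the called genes Mrpl57, Mrpl24, Mrpl51 and Mrps25.

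The transcripts of these genes are short, and length was checked because fold change ran with length across the whole table. Effective length, taken from the ratio of count to FPKM, had a median of 1007 bases for the large subunit, 1019 for the small and 2825 for all tested genes. Across all tested genes with a length the Spearman correlation of log2 fold change with length was -0.35, and across the 78 members it was -0.40, both across genes that share the same 6 libraries. The shortest quintile of the tested genes by length had 406 of 2599 called higher (15.6%) and a median log2 fold change of 0.33. The 60 members in that class had 11 called (18.3%) and a median of 0.39.

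In the short classes the medians of the members lay near those of all tested genes of their length, a set that includes the members. Below 700 bases, 15 members had a median of 0.51 and 5 called, against a median of 0.63 and 30.6% called for all 369 genes. Between 700 and 1000 bases, 21 members had a median of 0.43 and 3 called, against 0.45 and 20.8%. Between 1000 and 1500 bases, 20 members had a median of 0.32 and 3 called, against 0.26 and 11.3%. Between 1500 and 2500 bases, 16 members had a median of 0.16 and 1 called, against 0.08 and 7.38%. Above 2500 bases only 6 members were left, with a median of 0.33 and 1 called (Mrps25, at 6027 bases), against -0.17 and 4.52%; classes with fewer than 20 members are thin.

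**Figure D3:**
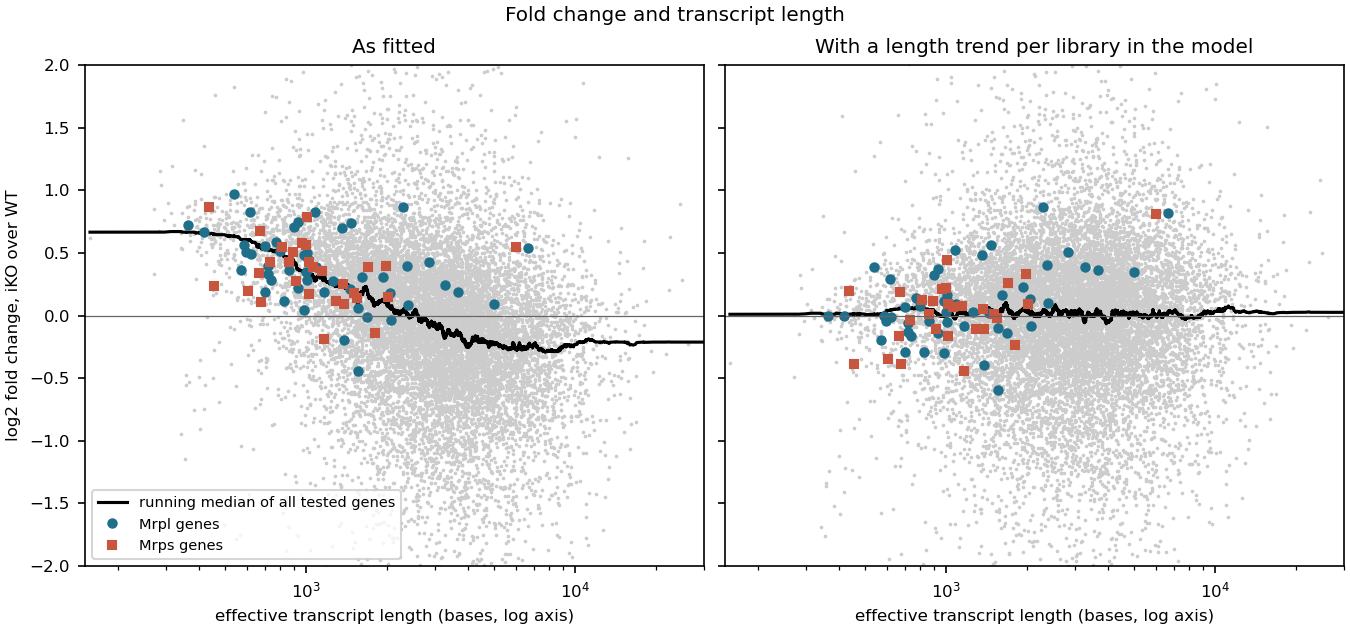
Log2 fold change (iKO over WT) against effective transcript length (log axis) for all tested genes in grey and the mitochondrial ribosomal protein genes in colour by subunit, with the running median of all genes as a line, as fitted (left) and with a length trend per library in the model (right); genes beyond a log2 value of 2 in size are not drawn. On the left, members follow the falling trend at short lengths, and Mrps25 lies above it and Mrpl3 below it.

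A fit with a length trend removed within each library left a median log2 fold change of 0.06 over the members, 0.07 for the large subunit and 0.06 for the small. In it Mrps25 (0.81, edgeR adjusted p = 0.0133), Mrpl57 (0.87, adjusted p = 0.0326) and Mrpl51 (0.56, adjusted p = 0.0374) were called higher, where 5.82% of all genes were. The estimated counts of Mrps25, Mrpl57 and Mrpl51 were not whole in any library, so their levels and effective lengths are less certain. Mrpl3 was called lower (-0.60, adjusted p = 0.0379), where 5.52% of all genes were. The short genes Mrpl52 and Mrpl33 came to -0.01 and -0.00, and Mrpl54 came to 0.39 (adjusted p = 0.101). The Spearman correlation with length was then -0.00 over all genes and 0.35 over the members. The value over all genes follows from the fit, which takes its trend from these same data. The offset would also remove a group difference that short genes share, so it cannot tell such a difference from a length effect.

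In CPM the livers iKO 1 and WT 2 stood at the ends of most members' ranges. iKO 1 held the highest CPM of the 6 livers for 62 of the 78 members, and WT 2 the lowest for 54. The median deviation of the members from their mean over the livers, on the log2 scale, was 0.41, 0.02 and 0.15 in iKO livers and -0.09, -0.32 and -0.13 in WT livers. For the shortest quintile of all genes it was 0.31, 0.03 and 0.14 in iKO livers and -0.14, -0.24 and -0.08 in WT livers. The Spearman correlation of deviation with length over all genes was -0.42, -0.07 and -0.20 in iKO livers and 0.30, 0.43 and 0.09 in WT livers. The TMM factors, which rescale each library, were 0.780, 0.990 and 1.06 in iKO livers and 0.996, 1.18 and 1.04 in WT livers. CPM values are divided by these factors, which raises every value of iKO 1 and lowers every value of WT 2. The ends therefore depend in part on this scaling. Without it the members' share of expected counts was highest in iKO 3 (0.261%) and lowest in WT 1 (0.205%). Leaving out iKO 1 left 6 members called higher (4.78% of all genes), and leaving out iKO 2 left 15 (6.85%). Leaving out iKO 3 left 3 (3.61%) and WT 1 left 8 (5.53%). Leaving out WT 2 left 0 (1.71%), with 16 at an unadjusted p under 0.05, and WT 3 left 2 (3.11%). Mrpl54 stayed called in 5 of the 6 such fits, with an adjusted p of 0.0800 without WT 2, and no member stayed called in all of them.

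**Figure D4:**
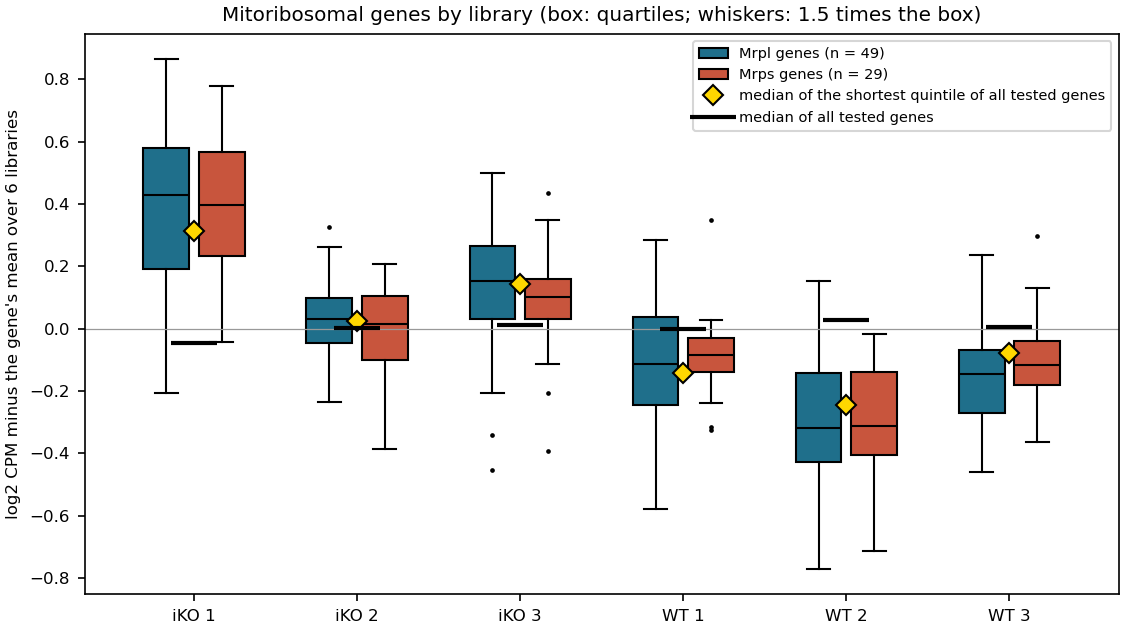
Log2 CPM of each mitochondrial ribosomal protein gene minus its mean over the 6 livers, as boxes (quartiles) per liver and subunit, with the medians of the shortest quintile (diamonds) and of all tested genes (bars), iKO livers left of WT livers. The medians over all members and over the shortest quintile are highest in iKO 1, at 0.41 and 0.31, and lowest in WT 2, at -0.32 and -0.24.

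Levels without TMM scaling kept the order of the groups on one scale and lost it on another. The members took 0.235%, 0.223% and 0.261% of expected counts in iKO livers, against 0.205%, 0.211% and 0.211% in WT livers, without overlap. Summed TPM, which corrects for length, was 3489, 3770 and 4282 in iKO livers, against 3257, 3731 and 3667 in WT livers, and the groups overlapped. For the large subunit alone it was 2327, 2540 and 2903 TPM in iKO livers, against 2140, 2479 and 2418 TPM in WT livers, and for the small subunit 1162, 1230 and 1379 TPM in iKO livers, against 1117, 1252 and 1248 TPM in WT livers. The ratio of large to small subunit TPM was 2.00, 2.06 and 2.11 in iKO livers, against 1.92, 1.98 and 1.94 in WT livers, and every iKO liver was above every WT liver. Among single tested genes 19.8% had that order and 19.2% the reverse, but in CPM, which is another measure than a ratio of summed TPM. These sums and the ratio go by symbol, so Mrps18a, Mrps30 and Mrps36 count as small subunit. The difference in the ratio was not tested. An exact permutation test of 3 livers against 3 cannot give a 2-sided p below 0.1, so that test cannot reach 0.05 here.

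The split of Y-linked reads crosses the contrast. A term for libraries with such reads left 0 of the 78 genes called and 11 higher at an unadjusted p under 0.05, and 0.593% of all genes were called higher in that fit. The 4 libraries with Y-linked reads alone, which leave WT 1 as the only WT liver and assume that it varies like the iKO livers, gave 0 calls, where 0.485% of all genes were called higher, and 6 higher at an unadjusted p under 0.05. In these data the genotype label and what goes with Y-linked reads overlap in part, and their shares in the difference cannot be told apart.

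Some members varied within a group in a way their group means do not show. Mrpl47 had 5.53, 6.92 and 7.73 CPM in iKO livers, against 7.54, 6.48 and 4.64 CPM in WT livers. The level in iKO 1 was 0.755 of the mean of iKO 2 and iKO 3, and in WT 3 it was 0.662 of the mean of WT 1 and WT 2. Mrpl18 (33.6, 44.0 and 42.2 CPM in iKO livers, against 37.8, 30.5 and 25.9 CPM in WT livers) and Mrpl50 (30.6, 39.8 and 38.2 CPM in iKO livers, against 33.7, 35.3 and 27.1 CPM in WT livers) had the same low livers. These 3 were picked for that pattern, with their values known.

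Promoter sequences were read to show what the genes share before their start. RefSeq entries (GRCm38.p6) covered 69 of the 78 genes, with 75 promoters of 250 bases before and 50 after the start. The letters CCGGAAG, a core bound by ETS factors such as GABP, were found on either strand in 26 of the 75 (34.7%), against 16.2% of the 13474 promoters of tested genes and 8.86% of all 32851 promoters. They were in 15 large and 11 small subunit genes, and in 7 of the 12 called genes with an entry. The printed stretches are the 120 bases before the start of 3 called genes and of Mrpl3, all on the plus strand, with that core, read on either strand, in capitals: Mrpl51 at chr6:125192080-125192199, Mrpl52 at chr14:54426789-54426908, Mrps18a at chr17:46110884-46111003 and Mrpl3 at chr9:105053148-105053267. They were chosen to show the core in genes that differ in direction.
Mrpl51: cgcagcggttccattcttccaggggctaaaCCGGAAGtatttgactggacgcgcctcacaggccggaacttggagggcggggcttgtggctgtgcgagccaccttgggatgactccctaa
Mrpl52: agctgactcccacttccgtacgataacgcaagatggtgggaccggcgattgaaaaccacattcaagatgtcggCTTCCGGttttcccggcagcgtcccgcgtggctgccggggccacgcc
Mrps18a: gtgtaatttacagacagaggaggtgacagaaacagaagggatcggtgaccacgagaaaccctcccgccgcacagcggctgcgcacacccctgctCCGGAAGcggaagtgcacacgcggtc
Mrpl3: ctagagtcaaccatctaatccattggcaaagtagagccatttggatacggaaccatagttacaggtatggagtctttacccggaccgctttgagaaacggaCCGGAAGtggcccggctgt
The core begins 90 bases before the start in Mrpl51, 47 in Mrpl52, 26 in Mrps18a and 19 in Mrpl3, so it occurs in genes with fold changes of both signs. The letters AAGATGGC, a YY1 core, were in 12 of the member promoters (16.0%), against 4.10% of tested-gene promoters. The NRF1 palindrome was in 3 (4.00%, against 1.89%), the E-box CACGTG in 7 (9.33%, against 9.55%), the CRE TGACGTCA in 2 (2.67%, against 2.77%) and the D-box TTATGTAA in 0 (against 0.579%). A match is a run of letters and shows no binding.

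Lists of genes that work with the mitochondrial ribosome were counted against the 7.31% of all tested genes called higher and the 8.07% called lower. Except for the first list, of 6 genes, no list had a share called in either direction above 8.33%. The first list, of ribosomal proteins under other symbols, also holds Oxa1l, which is not itself one. It had 1 of 6 called higher, Aurkaip1, a small subunit protein (70.7 ± 17.9 CPM in iKO, 42.9 ± 4.76 CPM in WT, SD, n = 3 each, log2 fold change 0.72 ± 0.20, edgeR adjusted p = 0.0416). Assembly and ribosomal RNA modification factors had 2 of 28 higher and 1 lower, with a median of 0.21. The higher ones were Mrm3, a methyltransferase of the large ribosomal RNA (9.19 ± 2.21 CPM in iKO, 4.22 ± 0.424 CPM in WT, 1.12 ± 0.24, adjusted p = 0.0159), and Mterf3 (0.69, adjusted p = 0.0377). The lower one was Trub2, a pseudouridine synthase (-0.63, adjusted p = 0.0490). Translation factors had 0 of 16 higher and 1 lower, Taco1, an activator of Cox1 translation, with 7.33, 8.58 and 4.51 CPM in iKO livers, against 17.5, 16.2 and 16.6 CPM in WT livers (-1.30 ± 0.23, adjusted p = 0.0086).

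Aminoacyl-tRNA synthetases of mitochondria had 1 of 17 lower, the leucyl enzyme Lars2 (8.92 ± 0.710 CPM in iKO, 14.4 ± 0.732 CPM in WT, -0.69 ± 0.16, edgeR adjusted p = 0.0218), and a median of 0.00. Transcription and messenger RNA handling of mitochondrial DNA had 1 of 19 higher, Slirp, a partner of the RNA stabiliser Lrpprc (0.65, adjusted p = 0.0244), and a median of 0.21. Regulators of nuclear-encoded mitochondrial genes had 1 of 12 higher and 1 lower. The higher one was Pprc1, a coactivator of the PGC-1 family, with 41.8, 31.3 and 27.9 CPM in iKO livers, against 9.88, 8.61 and 7.30 CPM in WT livers (1.97 ± 0.20, adjusted p = 0.0007), and the lower one was Hcfc1 (-0.73, adjusted p = 0.0139). Pprc1 stayed called in all 6 fits that left out a liver and with the Y-linked term (adjusted p = 0.0338), and Taco1 in the 6 but not with that term (adjusted p = 0.0803). The other 7 were lost without WT 2 and with the Y-linked term, and Trub2 was lost in all 6 fits that left out a liver.

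Larger shares of 2 other families with short transcripts passed the test, where 7.31% of all tested genes were called higher. All 369 genes below 700 bases, a class that holds part of both families, had 30.6% called higher and a median of 0.63. Of the oxidative phosphorylation subunits 23 of 78 tested genes were higher (29.5%), with a median of 0.66 and a median length of 648 bases, and of the cytosolic ribosomal proteins 27 of 80 (33.8%), with a median of 0.68 and 679 bases. With the length offset these medians were 0.11 and 0.19, against 0.06 for the mitochondrial ribosomal proteins. Without iKO 3, or without WT 2, 0 genes of either family were called, while the medians were 0.75 and 0.57 for the oxidative phosphorylation subunits and 0.70 and 0.60 for the cytosolic ribosomal proteins. Of all tested genes, 4.78% were called higher without iKO 1, 6.85% without iKO 2 and 3.61% without iKO 3. The shares were 5.53% without WT 1, 1.71% without WT 2, 3.11% without WT 3 and 10% by DESeq2. The oxidative phosphorylation subunits called numbered 1 without iKO 1, 28 without iKO 2, 11 without WT 1 and 0 without WT 3, and DESeq2 called 43. The cytosolic ribosomal proteins called numbered 2, 43, 4 and 4 in the same fits, and DESeq2 called 60. With the Y-linked term 0 of either were called, with medians of 0.49 and 0.62, in a fit that called 0.593% of all genes higher. These comparisons share the same 6 livers, and the difference between families was not tested.

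**Figure D5:**
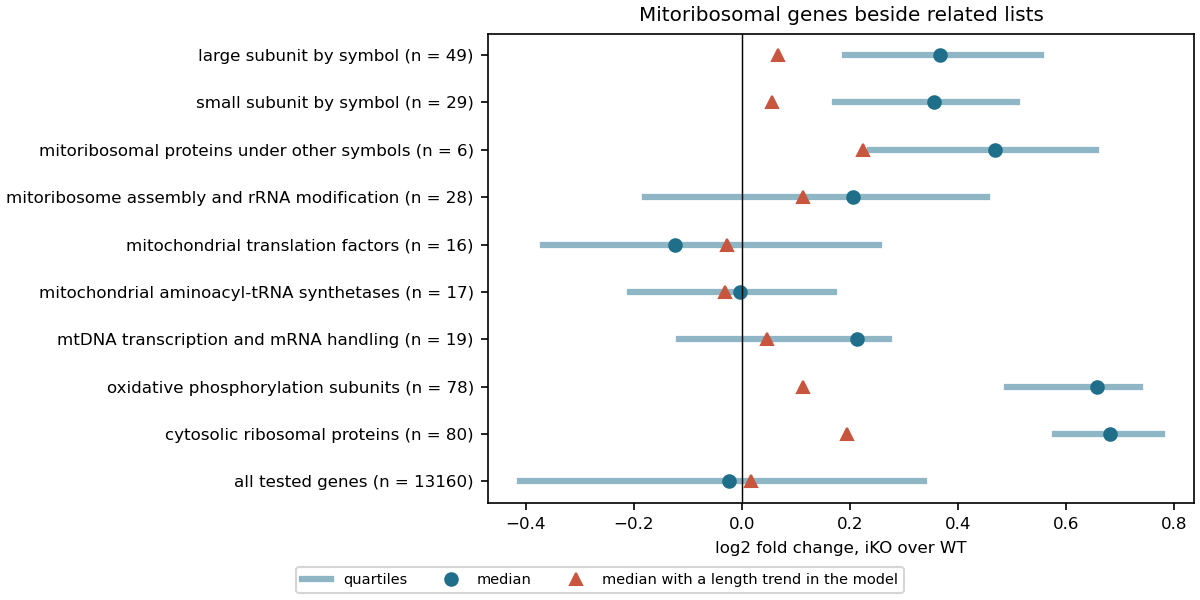
Median (points) and quartiles (bars) of log2 fold change (iKO over WT) for the large and small subunit genes, related lists and 2 other families, with the median from the fit with a length trend as triangles. The large subunit, the small subunit, oxidative phosphorylation and cytosolic ribosomal medians are 0.37, 0.35, 0.66 and 0.68, and 0.07, 0.06, 0.11 and 0.19 with the trend.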

How the data were processed

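RNA-seq of 6 mouse livers, 3 labelled iKO and 3 labelled WT, was used. Livers were snap-frozen and RNA was taken with Trizol, per the labels' protocols. The submitters' processing notes name RSEM 1.2.12, Bowtie2 2.2.5, HISAT2 2.0.4 and build mm9, and they do not say whether counting used strand. The authors deposited 1 table with expected counts, FPKM and TPM per library. The deposited expected counts are estimates that need not be whole, the deposited FPKM values are scaled by depth and length, and the deposited TPM values are scaled to a common total.

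After rounding, the expected counts of the whole table entered edgeR 4.0.16 in R 4.3.3 (filterByExpr, TMM, robust quasi-likelihood F test, adjusted by Benjamini-Hochberg, with 0.05 as threshold), which left 13160 genes. CPM values are TMM-normalized and each SE is the log2 fold change divided by the root of the F statistic. Effective length was the mean over libraries of count over FPKM and depth, using values of at least 0.2 FPKM. The length offset was a lowess trend per library with a span of 0.3. Members had at least 83 expected counts in each library. Counting error adds to the spread between livers, and intervals on fold changes come from the fit and hold both. Alternatives were upper-quartile or RLE factors, no filter, DESeq2 1.42.0, limma-voom (limma 3.58.1), a replicate block, log2(FPKM + 1) and log2(FPKM + 0.1), a Y-linked term, a length offset and leaving out each liver. The scripts were tested on simulated data.

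The members and lists were chosen with earlier results of these data known. Genes named are all called members, the 3 largest changes each way and the extremes of FPKM per subunit, members fixed by role, and up to 4 called genes of each related list; others are said to be chosen later. Promoters came from RefSeq on GRCm38.p6, another build than mm9, and no coordinates were converted.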

Additional observations from a re-analysis of the deposited data

How the results depend on the processing

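The counts and medians below are for mitoribosomal protein genes called higher in iKO (13), called lower in iKO (0), and the median log2 fold change of large subunit genes (0.37) and the median log2 fold change of small subunit genes (0.35). RLE and upper-quartile factors gave 12 higher (7.18% and 6.31% of all genes), no filter 13 (5.54%), DESeq2 15 and limma-voom 12 (6.89%). The log2(FPKM + 1) and log2(FPKM + 0.1) fits gave 5 higher and 1 lower (Mrpl3; 3.20% and 3.24% of all genes higher), and log2(FPKM + 1) with no filter gave 1 higher (1.54%), with medians of 0.20 for large and 0.14 for small subunit genes in each; the median of all genes moved there to -0.12, -0.20 and -0.05. The length offset gave 3 higher and 1 lower, with medians of 0.0662 and 0.0553. With a Y-linked term added to it there were 0 higher (3 at an unadjusted p under 0.05) and medians of 0.0433 and -0.0265, and with a replicate block added 2 higher and medians of 0.0636 and 0.0608. The Y-linked term alone gave 0 higher. The libraries with Y-linked reads alone, with WT 1 as the only WT liver, gave a median of 0.28 over all members. Leaving out each liver gave between 0 (without WT 2, 16 at an unadjusted p under 0.05) and 15 higher and 0 lower, and medians of 0.27 to 0.45 for large and 0.23 to 0.46 for small subunit genes. The cause of these changes was not tested.

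Called genes changed sign under the length offset for Mrpl33 (-0.0047, and -0.0076 with the replicate block), Mrpl52 (-0.0068, and -0.0068 with the block) and Slirp (-0.0517, -0.0082 with the Y-linked term and -0.0624 with the block). Of the 65 members not called, 44 had the other sign under at least 1 alternative, 25 of them under the length offset. The replicate block kept 11 of the 13 calls (5.87% of all genes higher). The labels' numbers were not taken as pairing the livers: same-numbered livers had correlations of deviations of 0.207, 0.218 and 0.0458, iKO 3 correlated best with WT 2 (0.334), and not every liver correlated best with its own number. Oxidative phosphorylation subunits called higher numbered 0 to 43 and cytosolic ribosomal proteins 0 to 60 over the alternatives. The highest were by DESeq2, which called 10% of all genes higher. Every member had at least 83 expected counts in each library; how counting error compares with the spread between livers was not tested.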
